A study of Mus musculus with 6 samples.

Results

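The 10 genes described here encode fibroblast growth factor (FGF) and platelet-derived growth factor (PDGF) ligands and receptors. They are the ligand genes Fgf2, Fgf7, Fgf10, Pdgfa and Pdgfc and the receptor genes Fgfr1, Fgfr2, Fgfr3, Pdgfra and Pdgfrb. They were taken by symbol from the deposited expression tables, where all 10 are among 15063 listed genes. RNA-seq was done on mesenchymal stem cells (MSCs), stromal cells with the potential to become osteoblasts, chondrocytes or adipocytes, grown from the bone marrow of mice aged 3 weeks. The 3 CKO libraries are of animals whose Mapk7, which encodes the MAP kinase ERK5, was conditionally knocked out, all at passage 5. The 3 WT libraries came from wild-type mice, with WT libraries 1 and 3 at passage 5 and WT library 2 at passage 7. WT libraries 1 and 2 carry 1 animal label between them. The description and the file header of WT library 3 disagree on its animal number, and no driver of the deletion is given in the sources used here. Whether the libraries within a group are independent cultures or litters is not stated, so a p-value here covers the library-to-library spread, which may be technical.

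FGFs and PDGFs are secreted signals that bind receptor tyrosine kinases on the cell surface and switch on the RAS to ERK1/2, PI3K and phospholipase C pathways. FGFs also need heparan sulphate chains to hold ligand and receptor together. Fgf7 and Fgf10 are made by mesenchyme and act mainly on the b splice form of FGFR2 in epithelium, while the c splice forms of FGFR1, FGFR2 and FGFR3 respond to FGF2 and carry FGF signals in bone and cartilage. PDGF-A and PDGF-C dimers signal through PDGFRα, and PDGF-D through PDGFRβ. PDGFRα and PDGFRβ are widely used markers of mesenchymal progenitors, with PDGFRβ also on pericytes.

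Each library held 17351907 to 20689481 counted reads, as recovered from the deposited values. Values are RPKM, reads scaled to gene length and library total, so that levels can be compared between genes. Mapk7 was at 5.59, 3.84 and 5.45 RPKM in CKO libraries 1 to 3, against 7.12, 6.76 and 9.07 RPKM in WT libraries 1 to 3, and gene-level values do not separate deleted from retained exons. The cultures carried stromal transcripts in both genotypes, with the 15 stromal markers summing to 3564 to 7295 RPKM in CKO and 6414 to 7027 RPKM in WT. The 12 macrophage markers summed to 675, 392 and 3271 RPKM in CKO libraries 1 to 3, against 1002, 749.9 and 2013 RPKM in WT libraries 1 to 3. CKO library 3 thus had the highest macrophage sum and the lowest stromal sum. All 8 endothelial markers were under 1 RPKM in every library. The 15 cell cycle genes summed to 215 to 476 RPKM in CKO, and to 47.5 RPKM in WT library 2 against 293 and 487 RPKM in the other WT libraries. With WT library 2 included, all 15 were above 0 on the log2 scale (median 1.03). The sums of the groups overlapped both with that library and without it. None of the tested stromal, macrophage or cell cycle genes (14, 11 and 15) passed.

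Among the 10 genes, 5 had every CKO value below the lowest WT value (Fgf10, Fgfr2, Fgfr3, Pdgfra and Pdgfrb), and Pdgfc had every CKO value above the highest WT value. Over all tested genes, 9.18% lay below without overlap and 7.51% lay above. No gene of the 10 passed the test across all genes (limma on log2(RPKM + 1), adjusted p under 0.05), and 1 of 11085 tested genes did so, which is 0.00902%. At an unadjusted p under 0.05, limma gave 6 of the 9 tested members, where 9.74% of all tested genes reached that level. Of the 6, 5 were lower in CKO, beside 6.39% of all tested genes, and 1 was higher, beside 3.36%. The 10 genes and the lists below were chosen with earlier results of these data known. Their counts beside the shares of all genes are therefore description and not support for a difference. Fgf2 was below the filter of RPKM 1 in 3 libraries and was not tested. Fgfr3 passed that filter only through its WT values and so had to differ. Without the filter, 6 of the 10 genes did not overlap between groups, against 17.2% of all listed genes. The median log2 difference of the 9 tested members was −0.92, and −0.37 without WT library 2, beside 0.034 for all tested genes. Over the whole table, leaving out WT library 1 gave 24 calls and leaving out CKO library 1 gave 17, while there were 0 calls when CKO library 3, WT library 2 or WT library 3 was dropped. In bulk RNA, fewer cells of a type and less RNA per cell cannot be told apart.

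**Figure D1:**
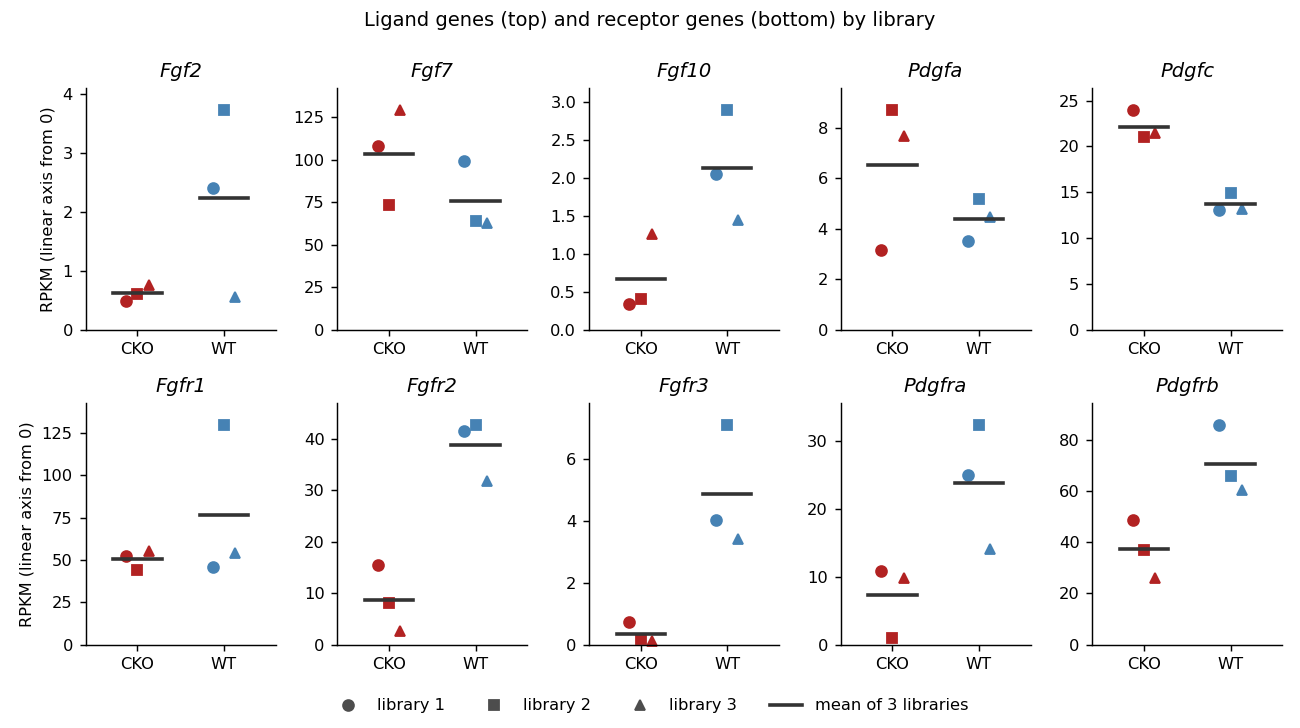
RPKM of the 5 ligand genes (top row) and the 5 receptor genes (bottom row) in each CKO library (left, red) and WT library (right, blue), on linear axes that start at 0 and differ between panels; marker shapes give the library number and bars the mean of 3 libraries. Fgfr2, Fgfr3, Pdgfra, Pdgfrb and Fgf10 have no CKO value as high as the lowest WT value, Pdgfc has no CKO value as low as the highest WT value, and Fgfr1 is highest in WT library 2 at 129.7 RPKM.

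FGFR1 is the main FGF receptor of marrow stroma and early osteoblasts. Its gene was at 52.2, 43.9 and 55.3 RPKM in CKO libraries 1 to 3, against 45.9, 129.7 and 53.9 RPKM in WT libraries 1 to 3. The groups overlapped, and the high WT mean came from WT library 2, the passage 7 library. The log2 difference was −0.44 (SE 0.40, limma adjusted p = 0.725), and without WT library 2 it was 0.012.

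FGFR2 acts in osteoprogenitor growth and differentiation, and activating forms of it fuse the skull sutures early. Fgfr2 was at 15.5, 8.00 and 2.72 RPKM in CKO libraries 1 to 3, against 41.6, 42.7 and 31.9 RPKM in WT libraries 1 to 3. Even the highest CKO value lay far below the lowest WT value, and the CKO libraries also spread widely among themselves, with CKO library 3 lowest. Behind the CKO values were 1566, 827 and 258 recovered reads, and behind the WT values 3859, 4722 and 2958. Exons of Ctbp2 overlap Fgfr2 on the same strand in the GENCODE M21 annotation. Ctbp2 was at 2.14 to 3.79 RPKM in CKO and 1.54 to 2.61 RPKM in WT. How reads of shared exons were counted is not known. The mean was 8.73 ± 6.41 RPKM in CKO and 38.7 ± 5.95 RPKM in WT (SD, n = 3 each), 4.44-fold higher in WT. On the log2 scale the difference was −2.27 (SE 0.51, 95% interval −3.46 to −1.07), which did not pass across all genes (limma adjusted p = 0.277).

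FGFR3 restrains the growth of cartilage cells and is best known for the dwarfism caused by its activating forms. Fgfr3 was at 0.711, 0.183 and 0.124 RPKM in CKO libraries 1 to 3, against 4.03, 7.09 and 3.42 RPKM in WT libraries 1 to 3. All CKO values were below 1 RPKM and all WT values above it. Only 61, 16 and 10 reads stood behind the CKO values, against 317, 664 and 269 in WT, and the ratio of means was 14.3 (WT over CKO). For Fgfr3 the log2 difference was −2.10 (SE 0.31, 95% interval −2.82 to −1.38). Its limma p ranked 15 among 11085 genes, with an adjusted p of 0.137. Fgfr3 met the filter only through its WT values, so this rank and p are not support for a difference. Fitted without the filter, its limma adjusted p was 0.238. Since the scale adds 1 to each value, the difference of so low a gene is understated, and it was −3.66 with a pseudocount of 0.1.

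The chondrocyte markers were also lower in CKO. The 10 markers, among them Sox9, Col2a1, Acan and Comp, summed to 15.8 to 217 RPKM in CKO and 845 to 4921 RPKM in WT. All 7 tested markers were below 0 on the log2 scale, 6 of them without overlap between groups (beside 9.18% of all tested genes), and none passed the test. Col9a1, Matn1 and Cnmd were at 0 in at least 1 library. The part of these transcripts in the Fgfr2 and Fgfr3 values was not tested.

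The shares of Fgfr1, Fgfr2 and Fgfr3 in the FGF receptor sum did not overlap between the groups. As parts of the same sum they are not separate results: lower Fgfr2 and Fgfr3 values raise the Fgfr1 share. The RPKM of Fgfr1 itself overlapped between the groups. Fgfr1 made up 76.3, 84.3 and 95.1% of the summed FGF receptor RPKM in CKO libraries 1 to 3, against 50.1, 72.2 and 60.4% in WT libraries 1 to 3. Fgfr2 made up 22.6, 15.4 and 4.68% in CKO, against 45.4, 23.8 and 35.7% in WT. The highest CKO share of Fgfr2 and its lowest WT share lay close together. Fgfr4, the remaining receptor kinase gene of the family, was at or under 0.086 RPKM in all 6 libraries, and listed at 0 in CKO library 3. The mean Fgfr1 share was 85.2 ± 9.45% in CKO and 60.9 ± 11.1% in WT (SD, n = 3 each). An exact permutation test of this share gave a two-sided p of 0.1, the smallest that 3 libraries against 3 allow. It was 0.167 after Benjamini-Hochberg adjustment over the 10 sums, shares and ratios computed, which were chosen after the values were seen (exact permutation test).

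**Figure D2:**
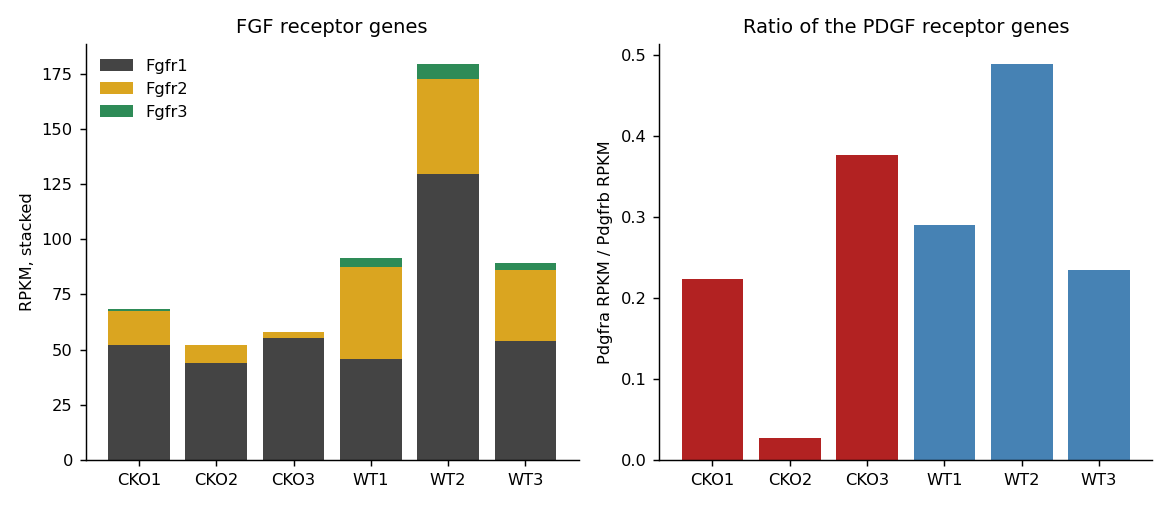
Left, stacked bars of the RPKM of Fgfr1, Fgfr2 and Fgfr3 in each CKO library (left 3 bars) and WT library (right 3 bars). Right, the RPKM of Pdgfra divided by that of Pdgfrb in the same libraries, with CKO in red and WT in blue. Fgfr1 takes 76.3 to 95.1% of the FGF receptor sum in CKO and 50.1 to 72.2% in WT, and the PDGF receptor ratio is lowest in CKO library 2 at 0.0273.

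PDGFRα, the receptor for PDGF-A and PDGF-C, marks mesenchymal progenitors. Pdgfra was at 10.9, 1.01 and 9.82 RPKM in CKO libraries 1 to 3, against 24.9, 32.3 and 14.1 RPKM in WT libraries 1 to 3. The groups did not overlap, but CKO libraries 1 and 3 lay close to WT library 3, and CKO library 2 stood about a factor of 10 below its group. That library held 160 Pdgfra reads, against 1689 and 1432 in the other CKO libraries and 2010 to 5496 in WT. The transcript was nearly lost in CKO library 2 but still detected. On the log2 scale the group difference was −1.89 (SE 0.70, 95% interval −3.55 to −0.23, limma adjusted p = 0.45), and −1.06 without CKO library 2.

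PDGFRβ marks pericytes and many stromal cells. Pdgfrb was at 48.5, 36.9 and 26.1 RPKM in CKO libraries 1 to 3, against 85.8, 66.0 and 60.2 RPKM in WT libraries 1 to 3. Here CKO library 2 was the middle CKO value, and CKO library 3 the lowest. The mean was 37.2 ± 11.2 RPKM in CKO and 70.7 ± 13.4 RPKM in WT (SD, n = 3 each), 1.90-fold higher in WT. The log2 difference of −0.94 (SE 0.29, 95% interval −1.62 to −0.26) did not pass (limma adjusted p = 0.35).

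The ratio of Pdgfra to Pdgfrb RPKM was 0.224, 0.0273 and 0.377 in CKO libraries 1 to 3, against 0.291, 0.490 and 0.234 in WT libraries 1 to 3. Outside CKO library 2 the ratios of the groups overlapped. The mean ratio was 0.209 ± 0.175 in CKO and 0.338 ± 0.134 in WT (SD, n = 3 each, two-sided exact permutation p = 0.4, adjusted 0.5). The difference of the means was −0.129, and −0.038 without CKO library 2, −0.213 without CKO library 3 and −0.0532 without WT library 2. Other markers also set CKO library 2 apart. Lum, the lumican gene of stromal matrix, was at 1.32 RPKM in CKO library 2, against 89.8 and 5.10 RPKM in CKO libraries 1 and 3 and 76.2 to 354 RPKM in WT. Surface markers in the stromal list did not move together there. Thy1 and Nt5e were highest of all 6 libraries in CKO library 2, at 219 and 22.3 RPKM. Vcam1 was lowest there, at 10.3 RPKM, while Ly6a was level with CKO library 1 (40.3 and 40.4 RPKM). The stromal sum of that library, 4134 RPKM, lay between those of the other CKO libraries. The 10 pericyte and smooth muscle markers summed to 5045 RPKM in CKO library 2, to 2149 and 2331 RPKM in the other CKO libraries and to 528 to 1906 RPKM in WT. Most of that sum was the contractile genes Acta2 and Cnn1, at 4085 and 864 RPKM in CKO library 2. The pericyte markers of the list went both ways there. Mcam and Rgs5 were highest of all 6 libraries in CKO library 2, at 69.2 and 2.76 RPKM, while Notch3 was lowest, at 0.452 RPKM. Cspg4 was at 3.17 RPKM in CKO library 2, against 1.23 and 0.378 RPKM in CKO libraries 1 and 3 and 7.62 to 17.2 RPKM in WT. The sums were higher in every CKO library than in any WT library, so the difference was not confined to CKO library 2. Of the 10 markers, 8 were tested, 6 above 0 and 2 below, with a median log2 difference of 1.52. Without overlap between groups, 4 were higher in CKO and 1 lower, which is 62.5%, beside 16.7% of all tested genes. None passed. Whether the make-up of the culture bears on the Pdgfra value was not tested.

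Other genes shared the dip of Pdgfra. Over the 6 libraries, the 3 tested genes whose centred log2(RPKM + 1) profile lay closest to that of Pdgfra were Bicc1, Slc26a2 and Gpm6b, with root mean square differences of 0.363, 0.369 and 0.433. In CKO libraries 1 to 3, Bicc1 was at 27.0, 4.87 and 15.5 RPKM, against 40.8, 48.2 and 30.7 RPKM in WT libraries 1 to 3. Slc26a2, a sulphate transporter gene needed for cartilage matrix, was at 7.09, 1.20 and 4.77 RPKM in CKO, against 13.9, 18.7 and 6.80 RPKM in WT. Each of the 3 was lowest in CKO library 2. For Fgfr2 the closest profiles were those of Palmd, Bmp4 and Lmo7 (0.29, 0.342 and 0.361). Bmp4, a bone-inducing ligand gene, was at 17.5, 8.01 and 1.31 RPKM in CKO and 47.2, 47.3 and 42.3 RPKM in WT, so that CKO library 3 was lowest for both it and Fgfr2. For Fgfr3 they were Ablim1, Trabd2b and Erg (0.25, 0.251 and 0.255). These genes were picked for their likeness over the same 6 libraries, and the differences are on the log2 scale.

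**Figure D3:**
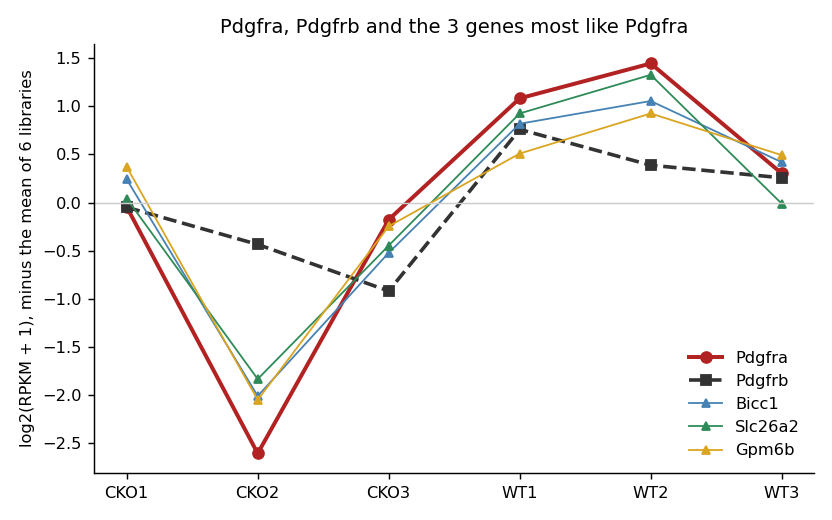
Log2(RPKM + 1) of Pdgfra (red), Pdgfrb (dashed) and the 3 genes with the profile closest to Pdgfra, each minus its mean over 6 libraries, in CKO libraries 1 to 3 and then WT libraries 1 to 3. Pdgfra, Bicc1, Slc26a2 and Gpm6b are all lowest in CKO library 2, while Pdgfrb is lowest in CKO library 3.

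The promoters of Fgfr2, Fgfr3, Pdgfra and Pdgfc are shown as examples of genes without overlap between the groups: Fgfr2, Fgfr3 and Pdgfra had the largest log2 differences among the 9 tested genes, and Pdgfc alone was higher in every CKO library. None of them passed the test across all genes. Sequences are from RefSeq on GRCm38.p6, 250 bases before to 50 after an annotated start, 5′ to 3′ on the gene's strand, and this build is not that of the deposited values (mm9). The table matched 8 of the 10 genes. Capitals mark the letters CACCC or their reverse complement, the core of the GT box that Kruppel-like factors such as the ERK5-induced Klf2 bind.
Fgfr2, chr7:130266759-130267058, minus strand: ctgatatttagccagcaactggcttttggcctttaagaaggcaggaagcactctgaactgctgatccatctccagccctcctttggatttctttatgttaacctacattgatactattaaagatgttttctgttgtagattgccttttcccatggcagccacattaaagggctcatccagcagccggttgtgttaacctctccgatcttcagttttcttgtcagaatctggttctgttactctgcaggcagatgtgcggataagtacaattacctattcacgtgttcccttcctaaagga
Fgfr3, first of 2 starts, chr5:33721474-33721773, plus strand: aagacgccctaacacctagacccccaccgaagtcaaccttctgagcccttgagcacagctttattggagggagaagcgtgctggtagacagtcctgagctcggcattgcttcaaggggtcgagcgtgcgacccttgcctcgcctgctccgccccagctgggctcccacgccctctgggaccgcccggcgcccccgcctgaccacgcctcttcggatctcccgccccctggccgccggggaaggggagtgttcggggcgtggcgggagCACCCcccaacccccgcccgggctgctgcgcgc
Pdgfra, chr5:75152001-75152300, plus strand: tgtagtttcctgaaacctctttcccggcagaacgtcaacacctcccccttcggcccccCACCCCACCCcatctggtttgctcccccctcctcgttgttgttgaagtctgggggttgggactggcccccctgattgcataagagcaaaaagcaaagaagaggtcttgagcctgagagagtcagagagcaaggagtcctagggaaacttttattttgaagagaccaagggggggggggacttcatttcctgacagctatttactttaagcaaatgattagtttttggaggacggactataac
Pdgfc, chr3:81036166-81036465, plus strand: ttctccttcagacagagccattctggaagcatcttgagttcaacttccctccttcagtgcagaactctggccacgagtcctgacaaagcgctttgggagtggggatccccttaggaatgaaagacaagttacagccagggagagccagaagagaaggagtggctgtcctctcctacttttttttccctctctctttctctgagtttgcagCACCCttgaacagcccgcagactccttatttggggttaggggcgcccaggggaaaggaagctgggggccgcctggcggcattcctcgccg
The letters CACCC occurred 0 times in the Fgfr2 window, 1 time in that of the first Fgfr3 start, 2 times in Pdgfra and 1 time in Pdgfc, on either strand and without overlap. The window of the second Fgfr3 start, not printed here, held 0 and had a G and C content of 73.0%. At least 1 such match was in 57.5% of the 32851 promoter windows of that length. The AP-1 letters TGANTCA (in 7.81% of windows) and the MEF2 letters CTA and TAG set 4 bases apart (in 3.69%) were in none of the 4 windows. The 4 windows had a G and C content of 43.7% in Fgfr2, 69.7% in Fgfr3 (first start), 51.0% in Pdgfra and 55.0% in Pdgfc, beside a median of 52.7% over all windows. Letters in a window do not show that a factor binds there.

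Among the ligand genes, Fgf7, the keratinocyte growth factor gene, had the highest level. It was at 108, 73.2 and 129 RPKM in CKO libraries 1 to 3, against 99.4, 63.9 and 63.0 RPKM in WT libraries 1 to 3. The values overlapped, with a mean of 103.5 ± 28.3 RPKM in CKO and 75.5 ± 20.8 RPKM in WT (SD, n = 3 each). The log2 difference was 0.45 (SE 0.32, 95% interval −0.29 to 1.18, limma adjusted p = 0.661), and 0.67 without CKO library 2 and 0.27 without CKO library 3.

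Fgf10, which signals through the same receptor form as Fgf7 and acts in limb and lung outgrowth, was low. It was at 0.335, 0.407 and 1.26 RPKM in CKO libraries 1 to 3, against 2.04, 2.89 and 1.44 RPKM in WT libraries 1 to 3. The groups did not overlap, but CKO library 3 and WT library 3 were close, with 102 and 114 reads. The log2 difference was −0.92 (SE 0.30, 95% interval −1.62 to −0.22, limma adjusted p = 0.376), and −1.68 with a pseudocount of 0.1. The mean of Fgf10 was lower in CKO and that of Fgf7 higher, and neither passed.

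The RPKM ratio of Fgf7 to Fgfr2 was 6.99, 9.16 and 47.5 in CKO libraries 1 to 3, against 2.39, 1.50 and 1.98 in WT libraries 1 to 3. The groups did not overlap, and CKO library 3 set the CKO mean. Fgf7 itself overlapped between the groups and Fgfr2 did not, so the ratio largely restates the Fgfr2 values. The difference of the means was 19.3 over 6 libraries and 6.12 without CKO library 3 (two-sided exact permutation p = 0.1, adjusted 0.167, over all 6 libraries). The 6 epithelial markers, of which 5 were below the filter, summed to 4.50 to 39.0 RPKM in CKO and 0.13 to 5.18 RPKM in WT, most of it Krt19 outside WT library 2, where Krt19 was listed at 0. Krt19 was at 3.13, 22.5 and 36.9 RPKM in CKO libraries 1 to 3, against 3.46 and 1.95 RPKM in WT libraries 1 and 3. Its log2 difference was 2.71 (limma adjusted p = 0.397), with overlap between the groups. Krt18 was at 2.40 RPKM in CKO library 2, while Epcam and Cdh1 stayed under 0.6 RPKM in all 6 libraries. Gene-level values do not tell the b from the c splice form of Fgfr2.

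Fgf2, a stromal mitogen used to expand MSCs in culture, was at 0.488, 0.610 and 0.752 RPKM in CKO libraries 1 to 3, against 2.40, 3.72 and 0.562 RPKM in WT libraries 1 to 3. WT library 3 lay within the CKO range, so that the higher WT mean came from WT libraries 1 and 2, which share an animal label. The values rest on 18 to 26 reads per CKO library and 81, 150 and 19 reads in WT libraries 1 to 3. Fitted without the filter, Fgf2 had a log2 difference of −0.86 (SE 0.40, limma adjusted p = 0.571 over 15063 genes). Exons of Nudt6 overlap Fgf2 on the opposite strand in the GENCODE M21 annotation. Nudt6 was at 0.72 to 1.07 RPKM in CKO and 0.609 to 0.872 RPKM in WT, and reads of the pair cannot be told apart if strand was not used in counting.

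Pdgfc, a PDGFRα ligand gene whose product needs cleavage by a protease, was at 24.0, 21.0 and 21.5 RPKM in CKO libraries 1 to 3, against 13.1, 14.9 and 13.1 RPKM in WT libraries 1 to 3. Relative to the mean it varied least of the 10 genes within both groups, and every CKO value was above every WT value. The mean was 22.2 ± 1.56 RPKM in CKO and 13.7 ± 1.03 RPKM in WT (SD, n = 3 each), 1.62-fold higher in CKO, with a log2 difference of 0.66 (SE 0.19, 95% interval 0.22 to 1.09, limma adjusted p = 0.323). It was 0.60 to 0.71 with any 1 library left out.

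Pdgfa, the gene of the other PDGFRα ligand, was at 3.17, 8.69 and 7.66 RPKM in CKO libraries 1 to 3, against 3.52, 5.18 and 4.48 RPKM in WT libraries 1 to 3. CKO library 1 was the lowest and CKO libraries 2 and 3 the highest of all 6. The log2 difference was 0.40 (SE 0.35, 95% interval −0.42 to 1.22, limma adjusted p = 0.717), with 0.78 without CKO library 1 and 0.17 without CKO library 2. In CKO library 2, where Pdgfra was lowest, Pdgfa was thus at its highest.

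**Figure D4:**
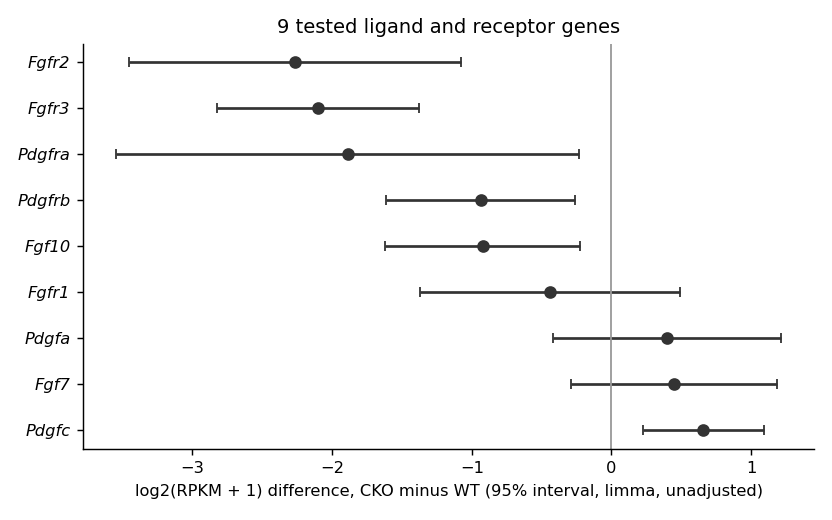
Log2(RPKM + 1) difference, CKO minus WT, of the 9 tested genes (points) with the unadjusted 95% interval from limma (bars), from Fgfr2 at the top to Pdgfc at the bottom. The intervals of Fgfr2, Fgfr3, Pdgfra, Pdgfrb, Fgf10 and Pdgfc leave out 0, and none of the 9 genes passes after adjustment over 11085 genes. The smallest limma adjusted p is 0.137, for Fgfr3, which met the filter only through its WT values.

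By level, the order of the genes differed between the groups. In CKO it ran Fgf7, Fgfr1, Pdgfrb, Pdgfc, Fgfr2, Pdgfra, Pdgfa, Fgf10, Fgf2 and Fgfr3 by mean RPKM. The ranges of Fgfr1 and Pdgfrb overlapped, as did each next pair from Fgfr2 to Pdgfa and from Fgf10 to Fgfr3. In WT it ran Fgfr1, Fgf7, Pdgfrb, Fgfr2, Pdgfra, Pdgfc, Fgfr3, Pdgfa, Fgf2 and Fgf10. There the ranges were separate only between Pdgfrb and Fgfr2 and between Pdgfc and Fgfr3. Pdgfc stood above Fgfr2 and Pdgfra in every CKO library, while in WT its highest value, 14.9 RPKM, was below every Fgfr2 value.

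None of the other ligand and receptor genes passed the test, with 4 of 24 above the filter and 15 listed. Pdgfd, whose product binds PDGFRβ, was at 13.5, 13.2 and 12.8 RPKM in CKO libraries 1 to 3, against 6.96, 4.42 and 3.06 RPKM in WT libraries 1 to 3 (log2 difference 1.34, SE 0.27, limma adjusted p = 0.258). As for Pdgfc, every CKO value was above every WT value and the CKO libraries lay close together. Fgfrl1, which encodes an FGF-binding receptor without a kinase, was at 15.4, 15.5 and 11.0 RPKM in CKO, against 25.2, 153 and 37.9 RPKM in WT (limma adjusted p = 0.395). Pdgfrl, a receptor-like gene, was at 5.67, 4.62 and 2.59 RPKM in CKO, against 16.0, 189.8 and 38.3 RPKM in WT (limma adjusted p = 0.289). Both had every CKO value below every WT value, and WT library 2 was far above the rest. Fgf21, an endocrine FGF gene, was at 4.43 ± 1.21 RPKM in CKO and 1.95 ± 1.34 RPKM in WT (SD, n = 3 each), with overlap. At an unadjusted p under 0.05, limma gave all 4, beside 9.74% of all tested genes.

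Genes for co-receptors, binding proteins and heparan sulphate enzymes lay mostly a little below 0. Of 23 tested, 18 were below and 5 above 0, with a median log2 difference of −0.30, and 30.4% did not overlap between groups, beside 16.7% of all tested genes. With median centring 3 of the 23 did not overlap, in place of 7. None passed, and limma gave 1 at an unadjusted p under 0.05: Gpc1, a heparan sulphate carrier gene, at 15.2 ± 3.82 RPKM in CKO and 28.3 ± 8.13 RPKM in WT. Sdc2, another carrier, was at 86.6 ± 30.4 and 146 ± 31.1 RPKM in CKO and WT. The sulphation enzyme genes Hs2st1 and Hs6st2 lay on opposite sides: Hs2st1 was at 6.06 ± 0.675 RPKM in CKO and 4.18 ± 0.541 RPKM in WT, and Hs6st2 at 24.3 ± 5.42 RPKM in CKO and 34.1 ± 2.24 RPKM in WT. Gpc6 was at 1.93 ± 0.986 RPKM in CKO and 3.44 ± 0.643 RPKM in WT (SD, n = 3 each throughout). The smallest adjusted p of the list was 0.425 in limma.

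Of the 6 protease genes known to activate PDGF precursors, 5 were tested, 3 below and 2 above 0, and none passed. Plat, the tissue plasminogen activator gene whose product cleaves PDGF-CC, was at 27.6 ± 9.03 RPKM in CKO and 25.4 ± 7.16 RPKM in WT (SD, n = 3 each). Furin, which cleaves the PDGF-A precursor, was at 26.1 ± 2.75 RPKM in CKO and 29.5 ± 9.60 RPKM in WT. These values overlapped, and the median of the list was −0.13 (0.11 without WT library 2). Plau, Pcsk6 and Pcsk5 were at 60.3 ± 18.2, 20.1 ± 12.8 and 0.758 ± 0.567 RPKM in CKO, against 35.6 ± 35.5, 28.8 ± 4.07 and 2.68 ± 1.17 RPKM in WT. In limma, Pcsk5 alone of the 5 had an unadjusted p below 0.05.

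Receptor adaptors and the RAS, RAF and ERK1/2 cascade were spread evenly around 0. All 28 were tested, 14 above and 14 below 0, with a median of 0.0325, close to that of all genes (0.034), and 17.9% without overlap, beside 16.7% of all tested genes. Src, a kinase gene downstream of PDGF receptors, was at 26.6 ± 4.11 RPKM in CKO and 13.8 ± 1.54 RPKM in WT (SD, n = 3 each, limma adjusted p = 0.277), with every CKO value above every WT value. Mapk3, the ERK1 gene, was at 62.3 ± 14.6 RPKM in CKO and 116 ± 36.0 RPKM in WT. Pik3r1, a PI3K regulatory subunit gene, was at 4.29 ± 1.65 RPKM in CKO and 11.2 ± 6.18 RPKM in WT. Both had every CKO value below every WT value, and neither passed (limma adjusted p = 0.42 and 0.424). Gab1 and Pik3cb were at 1.80 ± 0.794 and 6.73 ± 1.24 RPKM in CKO, against 3.01 ± 0.292 and 4.82 ± 0.975 RPKM in WT. At an unadjusted p under 0.05, limma gave 3 of the 28, a share near the 9.74% of all tested genes.

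Feedback inhibitors and ERK-induced targets lay mostly above 0, although none passed. Of 16 tested, 13 were above and 3 below 0, with a median log2 difference of 0.92 that was 0.30 without WT library 2, and 31.2% did not overlap, beside 16.7% of all tested genes. Spry1, which encodes a Sprouty inhibitor of FGF receptor signalling, was at 10.7, 10.9 and 13.1 RPKM in CKO libraries 1 to 3, against 5.69, 6.11 and 4.42 RPKM in WT libraries 1 to 3 (log2 difference 0.98, SE 0.21, limma adjusted p = 0.258). Etv4, an ETS factor gene induced by FGF, was at 7.30, 21.6 and 6.19 RPKM in CKO, against 3.47, 1.16 and 2.81 RPKM in WT (limma adjusted p = 0.324). For both genes every CKO value was above every WT value. Spred3 was at 6.65 ± 2.78 RPKM in CKO and 2.17 ± 0.604 RPKM in WT, and Phlda1 at 29.4 ± 14.2 RPKM in CKO and 9.48 ± 6.63 RPKM in WT (SD, n = 3 each). Ccnd1, the cyclin D1 gene, went the other way, at 30.5 ± 13.0 RPKM in CKO and 99.3 ± 42.3 RPKM in WT. The 18 genes summed to 220 RPKM in WT library 2 and to 397 and 452 RPKM in the other WT libraries. At an unadjusted p under 0.05, limma gave 6 of the 16, beside 9.74% of all tested genes, with 5 higher (3.36% of all) and 1 lower (6.39% of all).

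**Figure D5:**
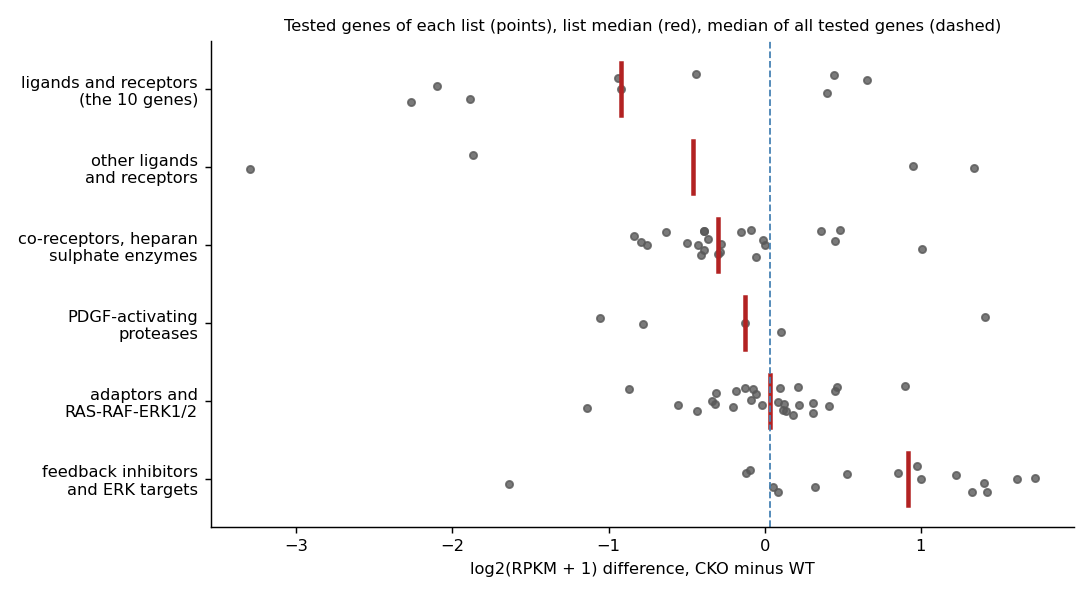
Log2(RPKM + 1) difference, CKO minus WT, of each tested gene (points) in the 10 ligand and receptor genes and in 5 lists of the same pathways, with each list's median (red bar) and the median of all tested genes, 0.034 (dashed line). The list medians run from −0.92 for the ligands and receptors to 0.92 for the feedback inhibitors and targets, and no point passed the test across all genes.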

How the data were processed

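Expression was deposited by the authors as RPKM, that is, reads divided by gene length and by the counted reads of the library. The file headers call it only expression, so this unit was inferred: taking an integer total for each library and an integer length for each gene turned the values of 15062 of 15063 genes (99.99%) into whole reads, to within 0.01 read or a relative error of 1e-07. Of 300 genes shuffled between libraries, 1 did so. At 1 kb, 3 reads are 0.145 to 0.173 RPKM, which covers counting error only. Per the submitters' processing notes reads were placed on mm9, and per the labels' protocols the TruSeq mRNA libraries were stranded. For the aligner, counter, annotation and use of strand, nothing is given in the sources used here.

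Genotypes were compared with limma 3.58.1 (R 4.3.3; trend, robust moderation) on log2(RPKM + 1) in 11085 genes with RPKM of at least 1 in at least 3 libraries, two-sided, Benjamini-Hochberg adjusted over all of them, threshold 0.05. The log2 scale understates changes of low genes. The fit was tested on simulated data. The 10 genes and the lists were chosen with earlier results of these data known. All 10 are named, with the 5 tested genes of lowest p in each pathway list, the 3 closest profiles for each tested gene spanning at least 2 log2 units, and Mapk7. Genes named beyond these (single markers, Fgfr4, Nudt6, Ctbp2 and those in the closing section) were chosen after their values were seen. Alternatives were other scalings, filters, pseudocount and moderation, voom on recovered reads, merged WT libraries, a replicate block and leaving out each library.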

Additional observations from a re-analysis of the deposited data

How the results depend on the processing

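None of the 9 tested genes passed the threshold under any alternative run, and neither did any gene of the 5 pathway lists. The sign of each log2 difference held wherever the gene was tested, except for Fgfr1 without WT library 2. The number of all genes past the threshold was 1 in the reported fit, 2 with median centring or quantile normalization, 0 without a filter, 4 with the filter at RPKM 5, 0 with a pseudocount of 0.1, 0 with voom on recovered reads, 20 with WT libraries 1 and 2 merged, and 0 to 24 with 1 library left out; the cause was not tested. With 1 library left out Fgfr1 ran from −0.73 to 0.012, the second value being that without WT library 2, which held its highest level. Fgfr3 had no test at RPKM 5, with merged WT libraries or when a WT library was dropped, since it then missed the filter, and Fgf10 had none at RPKM 5. Low genes moved with the scale: voom gave −4.15 for Fgfr3 and −1.91 for Fgf10. The replicate number as a block gave 0 genes past the threshold, and 6 of the 9 genes at an unadjusted p under 0.05, as without it. That count was 5 of 9 without CKO library 2, 4 of 8 with WT libraries 1 and 2 merged, 4 of 8 without WT library 1 or without WT library 2, 5 of 8 without WT library 3 and 4 of 7 at RPKM 5. Over all tested genes, that level was reached by 980 of 11005 without CKO library 2 and 1197 of 10890 with merged WT libraries. It was 1451 of 10824 without WT library 1, 642 of 10920 without WT library 2 and 665 of 10876 without WT library 3. At RPKM 5 it was 723 of 7671. Of the 10 genes, those without overlap numbered from 4 of 7 at RPKM 5 to 7 of 9 without CKO library 1 or 2. The share of all genes was not computed for these settings, and fewer libraries make overlap less likely. Same-numbered libraries deviated together with correlations of 0.198, 0.014 and −0.019 across genes, beside −0.230 to 0.206 for differently numbered ones. Pairing by number was thus not shown, and such correlations cannot exclude it. With 3 libraries a group, 10 to 61 reads limit Fgfr3 in CKO.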

Other observations

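The ligand genes Fgf18, Fgf5 and Pdgfb were below the filter but above 1 RPKM in some libraries. Fgf18, a ligand of FGFR3 in cartilage and bone, was at 0.99, 0.234 and 0.255 RPKM in CKO libraries 1 to 3, against 0.783, 16.9 and 6.64 RPKM in WT libraries 1 to 3. Fgf5, which ends hair growth, was at 1.88, 0.475 and 3.71 RPKM in CKO, against 0.598 and 0.345 RPKM in WT libraries 1 and 3, and was listed at 0 in WT library 2. Pdgfb, a ligand gene for both PDGF receptors, was at 3.59 RPKM in WT library 3 and at 0.411 to 0.757 RPKM in the other 5 libraries. None of these genes was tested.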
